A study of Glycine max with 36 samples.

Results

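The genes described here are the soybean (Glycine max) NBS-LRR immune receptor genes with the most small RNA hits. They are the genes whose closest Arabidopsis protein is described as an NBS-LRR class protein or as an NB-ARC domain-containing disease resistance protein, ranked by hits on both strands summed over 36 small RNA libraries, with the first 150 kept, so that the members were chosen by their total hits in these libraries. The descriptions select 421 of 52872 annotated genes, 402 of which had a hit, and the 150 members held 97.2% of the hits of all 421 and 1.31% of the hits on all genes. Their overall abundance is a description and was not tested. The last 3 members, Glyma.02G284100, Glyma.08G303700 and Glyma.15G024800, had 6868, 6382 and 6343 hits, and the next 3 genes in rank, Glyma.12G136700, Glyma.02G026200 and Glyma.12G212500, had 6276, 6121 and 6071. Each gene was represented by its lowest-numbered splice form, and a hit is a read placed on that transcript, in the sense or the antisense direction.

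NBS-LRR proteins are intracellular receptors that detect effectors of pathogens. They carry a nucleotide-binding NB-ARC domain and leucine-rich repeats, preceded by a TIR domain or a coiled coil, by which the TIR and CC classes are named. In legumes, microRNAs such as those of the miR482 and miR2118 group cut many NBS-LRR transcripts, after which RDR6 and SGS3 make the cut RNA double-stranded and DCL4 cuts it into phased small interfering RNAs from both strands. A sense hit can therefore be a small interfering RNA or a fragment of the messenger RNA, and an antisense hit a small interfering RNA or a microRNA that matches the transcript. The deposited counts pool all read lengths and do not tell these apart.

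Immature seed coats came from Williams seeds of 100 to 500 mg (3 libraries of 3 weights), from Williams 44 (a black-coated i mutant) at 50 to 75 mg, from Clark 63 and the Clark mi isoline with a defective coat at 50 to 100 mg (1 each), and from Richland and T157 at 5 to 6 mg (3 each) and 10 to 25 mg (1 each). The remaining Williams libraries were a dry seed coat, a dry cotyledon, an immature cotyledon without its axis, 2 embryo axes, seedling cotyledons at stages 1 (imbibed for 48 hr) to 7 (fully green), and a leaf at 10 days. Clark gave vegetative buds at 5 to 7 weeks from five-foliate (Lf1), glabrous (P1) and standard plants, tips from 1-month five-foliate and glabrous plants, and 1 cm tips from adult five-foliate, glabrous and standard plants. Williams, Clark 63 and Clark are of genotype i-i R T, the five-foliate and glabrous isolines add Lf1 and P1, Clark mi is i-i R t with mi G, Richland is I R t, T157 is i R t, and Williams 44 is i R T.

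Gene hits per library ranged from 5739265 to 85258357, except in the stage 2 seedling cotyledon library, which had 965304 and hit 55 of the 150 members against nearly all in each other library. That library was left out of levels and fits, and levels are given as CPM, hits relative to all gene hits of a library, scaled by TMM factors over the other 35 libraries. All 150 members had a hit in at least 35 libraries, and 144 had 10 or more hits in at least 30. As a check of tissue labels, summed hits on CHS7 and CHS8, the chalcone synthase genes silenced in i-i seed coats, were 920 to 4952 CPM in the Williams immature seed coats and 3.30 to 11 CPM in the seedling cotyledons. Nothing in the labels says that libraries of a group came from separate plants, so p-values measure the spread between libraries, which may be technical.

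By their descriptions, 4 members are of the CC-NBS-LRR class, 42 are described only as NB-ARC proteins and all others are of the TIR-NBS-LRR class. Domain annotation gives 87 a TIR domain, 121 an NB-ARC domain and 22 leucine-rich repeats, and 11 have no annotated domain. Going by the gene identifiers, 43 members lie on chromosome 16, 20 on chromosome 6, 11 on chromosome 15, and 10 each on chromosomes 13 and 19. The 43 members on chromosome 16 held 39.5% of all member hits. Per kilobase of transcript, TIR members had a median of 19164 hits over the 36 libraries, NB-ARC members 3558 and CC members 1859. The 2 densest members, Glyma.12G163089 (843264 hits per kb) and Glyma.06G146200 (708540 hits per kb), have short transcripts of 899 and 669 bases with only a TIR domain annotated.

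The 10 members with the most hits held 35.7% of member hits, and 9 of them are TIR genes that lay mostly on the antisense strand. Glyma.04G219632 led with 940511 hits, 16.3% of them sense, followed by Glyma.12G163089 with 758094 (15.5% sense) and Glyma.06G146200 with 474013 (2.41% sense). Glyma.18G116601 had 456580 hits with 1.1% sense, Glyma.15G232400 had 426114 with 1.57% and Glyma.19G022700 had 326846 with 16.9%. Glyma.16G135500, Glyma.19G054700 and Glyma.16G147400 had 294480, 252100 and 239660 hits with 8.51, 8.38 and 6.46% sense. The exception was the NB-ARC gene Glyma.20G042400 at rank 8. The 9 TIR genes had their highest tissue mean in the immature cotyledon, and Glyma.20G042400 had its highest in T157 seed coats of 5 to 6 mg. Glyma.20G050550 and Glyma.06G318566 each shared identical counts with a second gene throughout, which leaves their values uncertain.

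Small RNAs on these genes came mostly from the antisense strand. Over all libraries the sense strand held 22.8% of member hits, against 31.3% of the hits on the 3538 genes outside the family with at least as many hits as the last member, and over all genes it held 23.9 to 42.6% in single libraries. Of the members, 56 lay mostly on the sense strand and 94 mostly on the antisense strand, and the median member had 29.4% sense hits. The lean was strongest among the members with the most hits. Of ranks 1 to 50, 2 lay mostly on sense and 48 on antisense (median sense share 12.1%), against 26 and 24 of the next 50 ranks, and 28 and 22 of the last 50. Among the 252 family genes below rank 150 that had a hit, 128 lay mostly on sense and 124 on antisense, with a median sense share of 51.1%. Among the 3538 genes outside the family, 1867 lay mostly on sense and 1671 on antisense.

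The classes differed in these counts. TIR members divided into 28 mostly sense and 76 mostly antisense, with a median sense share of 19.9%. NB-ARC members divided the other way, into 27 and 15, with a median of 56.1%. The 4 CC members divided into 1 and 3. On chromosome 16, 6 members lay mostly on sense and 37 on antisense, and on chromosome 15, 1 and 10 with a median sense share of 1.55%. On chromosome 13 the counts were 7 and 3. In 56 members the antisense strand led in every library with at least 10 hits on the gene, in 16 the sense strand led in every such library, and in 78 the leading strand changed between libraries.

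**Figure D1:**
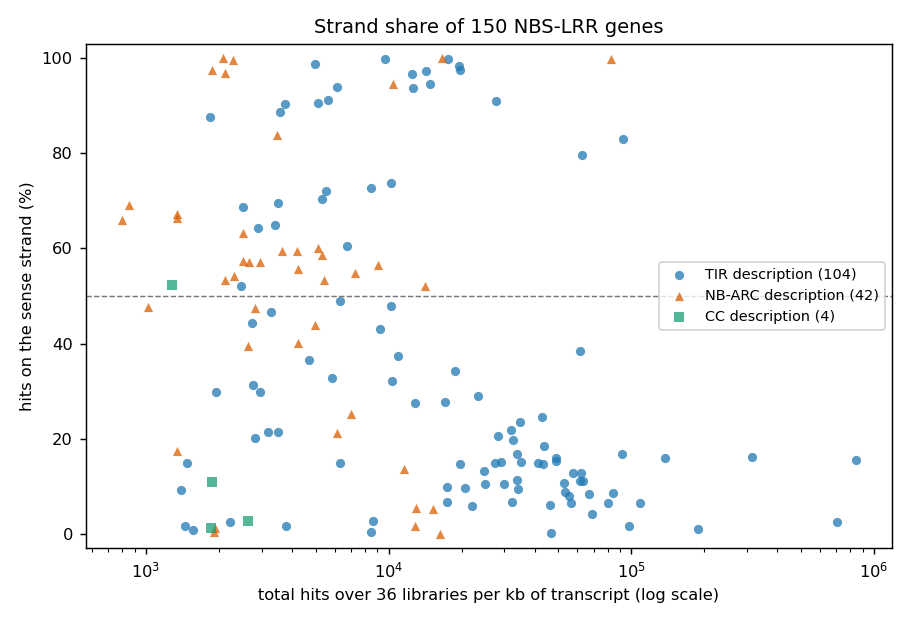
Share of hits on the sense strand (vertical axis, percent) against hits over 36 libraries per kb of transcript (horizontal axis, log scale) for the 150 genes, each point a gene, marked by the class in its description. The 3 genes with the most hits per kb are TIR genes at 15.5, 2.41 and 16.3% sense, and the NB-ARC gene Glyma.20G042400 lies at 82931 hits per kb and 99.8% sense.

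Sense and antisense hits were then compared within libraries by edgeR's quasi-likelihood test over 35 libraries, with the library as a block. Of the 150 members 127 were called at an adjusted p under 0.05, a share to be read against 87.5% of all 18018 genes tested, and 130 had an unadjusted p under 0.05, against 87.8%. Of these, 40 were called toward the sense strand (45.5% of all genes) and 87 toward the antisense strand (42% of all genes). The median log2 ratio of sense to antisense hits was -1.23 for the members and 0.29 for all genes tested. All 50 members of ranks 1 to 50 were called, 2 toward sense and 48 toward antisense. Among chromosome 16 members 3 were called toward sense and 36 toward antisense.

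Of the called members, the 5 with the largest ratios in each direction are given with their hits over all libraries. Glyma.14G205000, an NB-ARC gene, had 9793 sense hits and no antisense hit, which allows an antisense share of up to 0.0306% and puts sense at least 3264-fold higher, taking 3 hits over all libraries as the floor. Glyma.18G105100, whose closest Arabidopsis protein is RPM1, a receptor that detects effectors of Pseudomonas, had 99.98% sense hits, with a log2 ratio of 11.52 ± 0.46 (SE; edgeR adjusted p = 5.58e-24). Glyma.20G042400, also closest to RPM1, had 99.8% sense hits of 270854 and a log2 ratio of 10.77 ± 0.49 (edgeR adjusted p = 2.84e-22). Its sense share lay between 98.2 and 100% in every library. Glyma.03G053100 (10.67 ± 0.47) and Glyma.08G192900 (9.84 ± 0.55) complete the 5 most sense-sided called members.

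At the other end, Glyma.03G048250, an NB-ARC gene, had no sense hit and 11948 antisense hits, which allows a sense share of up to 0.0251% and puts antisense at least 3983-fold higher on the same floor. The TIR gene Glyma.06G146200 had 2.41% sense hits of 474013, with a log2 ratio of -9.52 ± 0.74 (edgeR adjusted p = 7.96e-15), a ratio that does not hold in every library. Glyma.15G246100 (-9.14 ± 0.52), Glyma.15G232600 (-8.76 ± 0.51) and Glyma.15G152200 (-7.99 ± 0.50) all lie on chromosome 15 and had 0.334, 0.268 and 0.788% sense hits. Intervals and floors cover counting error only, since reads without molecular identifiers are not independent molecules.

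The sense share of Glyma.06G146200 varied between libraries, also among seed coats. It was 2.72, 31.0 and 6.99% in Williams seed coats of 100 to 200, 200 to 300 and 400 to 500 mg and 47.1% in the dry seed coat, but at most 0.0241% in the 6 coats of 5 to 6 mg and at most 0.183% in the 5 other immature coats. It was 1.30% in the immature cotyledon, at most 0.370% in the seedling cotyledons without stage 2, and at most 0.118% in leaf, buds and tips. Its neighbour in rank, the TIR gene Glyma.12G163089, had 25.5, 49.0 and 19.7% sense hits in the same Williams coats and 47.4% in the dry seed coat, against 10.4 to 14% in the seedling cotyledons without stage 2. Its share was 4.14 to 7.59% in the coats of 5 to 6 mg and 5.75 to 8.10% in the 5 other immature coats, below those cotyledons. The high shares among coats were those of Williams, whose seeds were also heavier than those of the other lines.

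Some members had nearly equal hits on a strand in the youngest seed coats. In the 6 seed coat libraries of 5 to 6 mg, 25 members fell into 8 sets within which hits on a strand matched another of the set within 5% in all 6 libraries, each with at least 100 hits. No pair of members matched within 5% in all 36 libraries, and the sense sets below matched within 10% in 11 and 18 of them. The sense sets were 2. The TIR genes Glyma.14G151100, Glyma.03G054100 and Glyma.03G053100 had 5158, 5128 and 5128 sense hits in Richland replicate 1 and 8075, 8019 and 8019 in T157 replicate 2. The TIR genes Glyma.13G194800, Glyma.07G123000 and Glyma.08G192900 and the NB-ARC gene Glyma.18G105100 had 4241, 4174, 4173 and 4192 in Richland replicate 1. These 7 genes lie on chromosomes 3, 7, 8, 13, 14 and 18, and no gene outside the members had sense hits in the range of either set in all 6 libraries.

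The largest antisense set joined 6 TIR genes, Glyma.16G135500, Glyma.16G147400, Glyma.19G054700, Glyma.19G054900, Glyma.19G055000 and Glyma.15G232600, and held 13.1% of the antisense hits on members over the 36 libraries. Their antisense hits were 4572 to 4795 in Richland replicate 1 and 3808 to 4037 in T157 replicate 3. The TIR genes Glyma.12G163089 and Glyma.06G146200 formed a second antisense set with 11.5% of member antisense hits, and 4 TIR genes on chromosome 16 another with 7.28%. Reads were not followed between genes, and for most members, Glyma.08G192900 among them, the hits that the authors counted as unique equalled total hits. Whether members of a set share reads was not tested, and calls for them may not be independent of each other.

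The 7 sense-set genes were abundant in the youngest seed coats. Their sets were formed in those same libraries and required at least 100 hits in each. High levels there were thus part of how the genes were chosen, and the values below are a description. Glyma.08G192900 had 523, 349 and 599 CPM in the Richland coats and 618, 614 and 514 CPM in the T157 coats of 5 to 6 mg. At 10 to 25 mg it had 5.15 CPM in Richland and 4.75 CPM in T157. The Williams coats of 100 to 200, 200 to 300 and 400 to 500 mg had 8.32, 51.9 and 23.6 CPM, and the dry seed coat 88.9 CPM. Glyma.03G053100 of the other set had 447 to 818 CPM at 5 to 6 mg, 16.4 and 11.2 CPM at 10 to 25 mg, and 110 CPM in the dry seed coat. For each of the 7 genes the lowest library at 5 to 6 mg was at least 3.67-fold above the highest of the other 29 libraries.

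Relative to sequenced reads (RPM) the same order held within Richland and T157, but the groups met. Glyma.08G192900 had 159 to 505 RPM at 5 to 6 mg and 4.32 to 184 in the other seed coats, the dry coat being the highest. Over the 6 young coats the 7 genes held 53.7 to 63.4% of the sense hits on members, against 2.98 to 21.7% in the other 9 seed coats. Without them the other members had a sense share of 17.0 to 24.5% in the young coats. In all, 35 of 150 members were higher in all 6 young coats than in each of the other 9 coats, as were 21.8% of the 11531 genes averaging 1 CPM or more, and 15 members were lower, as were 19.99% of those genes.

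**Figure D2:**
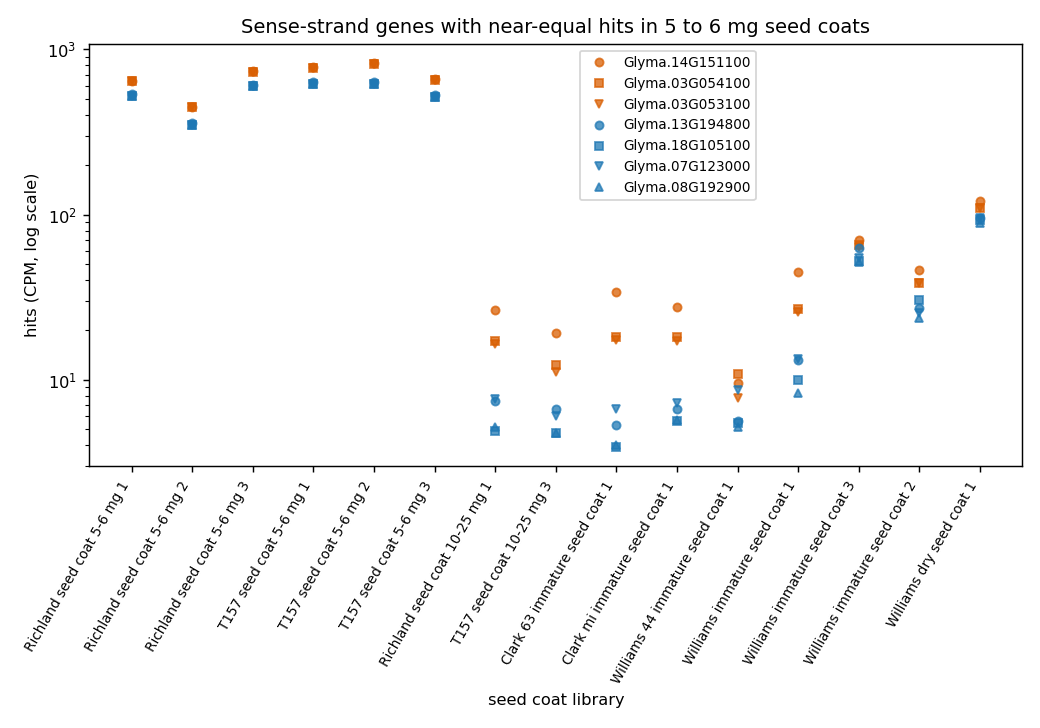
Hits (vertical axis, CPM on a log scale) of the 7 sense-strand genes in each of the 15 seed coat libraries, each point a gene in a library, coloured by the set whose sense hits nearly match. The 6 libraries of 5 to 6 mg lie between 349 and 825 CPM, above all later coats, whose highest value is 120 CPM in the dry seed coat.

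The members' summed level was highest in the immature and the dry cotyledon and lowest in leaf and adult shoot tips. It was 54827 CPM in the immature cotyledon, 23517 CPM in the dry cotyledon and 17207 ± 3644 CPM in the embryo axes (SD, n = 2). The seedling cotyledons without stage 2 averaged 13376 ± 4605 CPM (n = 6), the Williams immature seed coats 8655 ± 668 CPM (n = 3) and the dry seed coat 8971 CPM. At 5 to 6 mg the Richland and T157 coats averaged 18516 ± 4364 and 19407 ± 4166 CPM (n = 3 each), and at 10 to 25 mg both together 7047 ± 789 CPM (n = 2). Vegetative buds averaged 4662 ± 633 CPM (n = 3), adult tips 3260 ± 332 CPM (n = 4) and 1-month tips 5807 ± 584 CPM (n = 2), and leaf had 2392 CPM. The order of seedling cotyledons and seed coats depends on scaling. By share of gene hits the seedling cotyledons averaged 0.972% and the Williams immature coats 0.985%. Relative to sequenced reads they averaged 9786 and 14465 RPM, and the Richland and T157 coats of 5 to 6 mg 11608 and 14861 RPM.

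Among neighbours in the order by CPM, the 4232 to 5389 CPM of buds did not overlap the 2870 to 3601 CPM of adult tips. The Williams 44 coat lay between them at 3884 CPM. Relative to sequenced reads buds and adult tips overlapped, at 2584 to 4715 RPM and 1997 to 4831 RPM. The immature cotyledon was the highest tissue for 83 of 150 members, the Williams 44 coat for 14 and embryo axes for 13, while the Williams 44 coat was the lowest tissue for 63 and leaf for 43. The choice of members by summed hits favours the count for the immature cotyledon. As a share of all gene hits, the members ranged from 0.103% in leaf to 3.58% in the immature cotyledon. In bulk tissue, fewer cells with these small RNAs and less small RNA per cell cannot be told apart.

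The antisense strand carried most of the hits in the immature cotyledon. The immature cotyledon had 6489 sense and 48338 antisense CPM, so that sense made up 11.8% of its member hits (95% Wilson interval 11.8 to 11.9%). Leaf had 1220 sense and 1171 antisense CPM, with 51% sense (50.4 to 51.6%). Dry cotyledon and embryo axes had 16.5 to 18.8% sense, and buds 40.4 to 40.9%. Across all genes the sense share was 26.7% in the immature cotyledon and 28.6% in leaf. Glyma.04G219632, the TIR gene at the top of the ranking, had 5133 CPM in the immature cotyledon, a median of 535 CPM over the 35 libraries and 69 CPM in the Williams 44 coat. Its sense share stayed between 6.04 and 28.6%. Glyma.20G042400, the sense-sided NB-ARC gene at rank 8, had a different order, with 772 CPM in the stage 1 cotyledon, 148.9 CPM in the immature cotyledon and 60.3 CPM in an embryo axis.

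**Figure D3:**
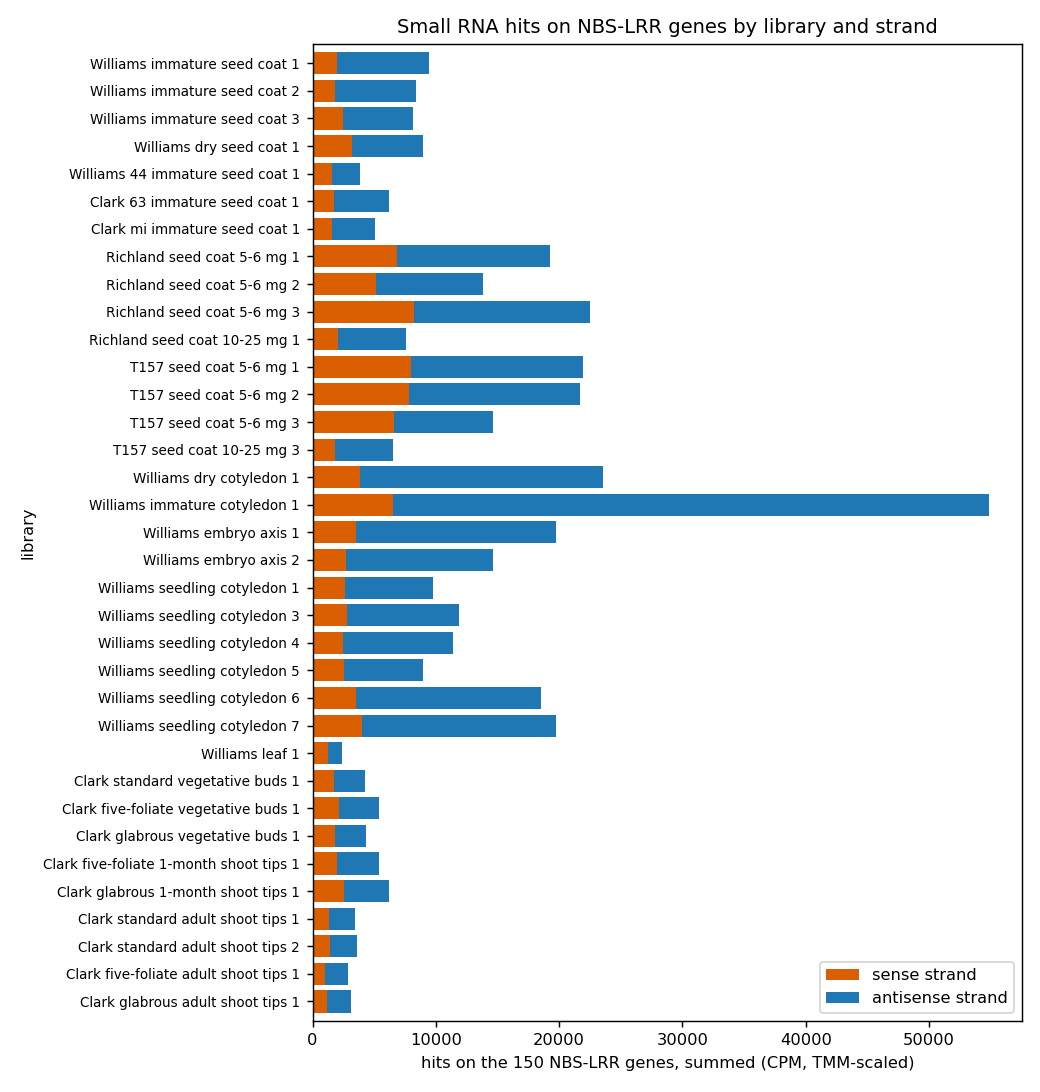
Summed hits on the 150 genes (horizontal axis, CPM) in each of 35 libraries, with the sense strand in orange and the antisense strand in blue. The immature cotyledon stands at 54827 CPM, of which 48338 CPM are antisense, and leaf at 2392 CPM with the strands nearly level.

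Williams immature seed coats were set against Williams seedling cotyledons to compare the tissues within a cultivar. Of the 150 members 37 were called, 9 higher and 28 lower in seed coats, against 55.7% of all 16878 genes tested, 28.7% higher and 27% lower. The groups did not overlap for 35 members, against 48.7% of all genes. The members' median log2 fold change was -0.28 and that of all genes 0.05. The split depends on scaling: with library totals in place of TMM factors 21 members were higher and 14 lower and the all-gene median was 0.72, and with sequenced reads as library size, an alternative chosen after seeing the data, 61 were higher and 10 lower and the all-gene median was 1.39. Relative to the all-gene median, the members' median was -0.33 with TMM factors, -0.33 with library totals and -0.37 with sequenced reads. Of 62 tested photosynthesis genes 6 rose and 35 fell in coats, summed to 253 to 996 CPM in coats and 299 to 2514 CPM in cotyledons, and of 72 seed storage genes 20 rose and 19 fell; the part of either in the members' result was not tested. Seed weight differs among the 3 coats and stage among the 6 cotyledons, which adds to the spread of each group.

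By class, 6 TIR members rose and 21 fell, 3 of 42 NB-ARC members rose and 6 fell, and 1 of 4 CC members fell. On chromosome 16, 1 of 43 rose and 3 fell. On chromosome 6, none of 20 rose and 8 fell. Of ranks 1 to 50, none rose and 6 fell, among them the 5 members with the most hits. Rank was set by hits summed over libraries that include those compared here, so the counts by rank are a description. These counts by class, chromosome and rank are to be read beside the 28.7% of all genes called higher and 27% called lower. They rest on TMM factors, and the split of the members as a whole changed with scaling, as given above. Whether any class, chromosome or rank group fell more often than all genes was not tested. Glyma.12G163089 averaged 292 ± 110 CPM in seed coats and 1762 ± 551 CPM in cotyledons (SD, n = 3 and 6), a log2 change of -2.66 ± 0.46 (edgeR adjusted p = 4.88e-04). Glyma.04G219632 averaged 517 ± 146 CPM in seed coats and 1123 ± 524 CPM in cotyledons, a log2 change of -1.21 ± 0.48 (edgeR adjusted p = 0.0474), and its groups overlapped. With the stage 2 cotyledon library in the fit, 16 members were called, 5 higher and 11 lower.

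The members that rose most among those with at least 5 CPM and separate groups were 5 TIR genes and an NB-ARC gene. Glyma.01G112200 had 52.6, 62.5 and 42.5 CPM in seed coats of 100 to 200, 200 to 300 and 400 to 500 mg, against 3.37 to 15.5 CPM in cotyledons, a log2 change of 2.42 ± 0.49 (edgeR adjusted p = 0.00124). Glyma.14G205000, the NB-ARC gene with sense hits alone, had 16.9, 13.8 and 26 CPM in the same coats, against 3.01 to 5.06 CPM, a log2 change of 2.19 ± 0.33 (adjusted p = 1.92e-04). Glyma.15G024800 had 13, 9.31 and 15.5 CPM, against 1.5 CPM at stage 1 and 6.06 CPM at stage 7 (log2 change 2.03 ± 0.47). Glyma.20G020200 had 34.2, 59.8 and 55.0 CPM, against 8.19 to 16.1 CPM (1.93 ± 0.31). Glyma.03G088000 had 17.8, 57.2 and 22.3 CPM, against 7.07 to 13.1 CPM (1.66 ± 0.39), and Glyma.03G053500 had 42.8, 13.8 and 20.8 CPM, against 4.44 to 11.4 CPM (1.57 ± 0.42). In all 6 genes each coat lay above each cotyledon, and the call of Glyma.03G053500 was lost without the lightest coat, at a log2 change of 0.87.

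The members that fell most were 5 TIR genes and an NB-ARC gene, and in each the coats lay below all cotyledons. Glyma.16G127960 had 2.81, 1.81 and 2.48 CPM in the coats, against 16.3 CPM at stage 1, 29.7 at stage 3, 38.0 at stage 4, 64.2 at stage 5, 60.3 at stage 6 and 73.5 at stage 7, a log2 change of -4.41 ± 0.62 (edgeR adjusted p = 1.26e-04). Glyma.06G261500 had 1.81, 0.809 and 1.32 CPM, against 10.6 CPM at stage 1 and 42.3 CPM at stage 7 (-4.26 ± 0.70). Glyma.06G265000 on the same chromosome had 2.57, 1.07 and 2.17 CPM, against 12.6 to 51.7 CPM (-3.94 ± 0.70). Glyma.12G135600 had 3.82, 2.30 and 2.02 CPM, against 16.2 to 49.9 CPM (-3.50 ± 0.60). Stages 6 and 7 were the highest cotyledons for Glyma.06G261500, Glyma.06G265000 and Glyma.12G135600. Glyma.12G163080, with a transcript of 348 bases, had 9.18, 3.94 and 6.20 CPM, against 39.2 to 91.1 CPM (-3.43 ± 0.47), and the NB-ARC gene Glyma.18G280366 had 0.713, 1.48 and 0.543 CPM, against 3.45 to 19.4 CPM (-3.29 ± 0.75). The 12 named genes kept their direction and their call with library totals and with sequenced reads.

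**Figure D4:**
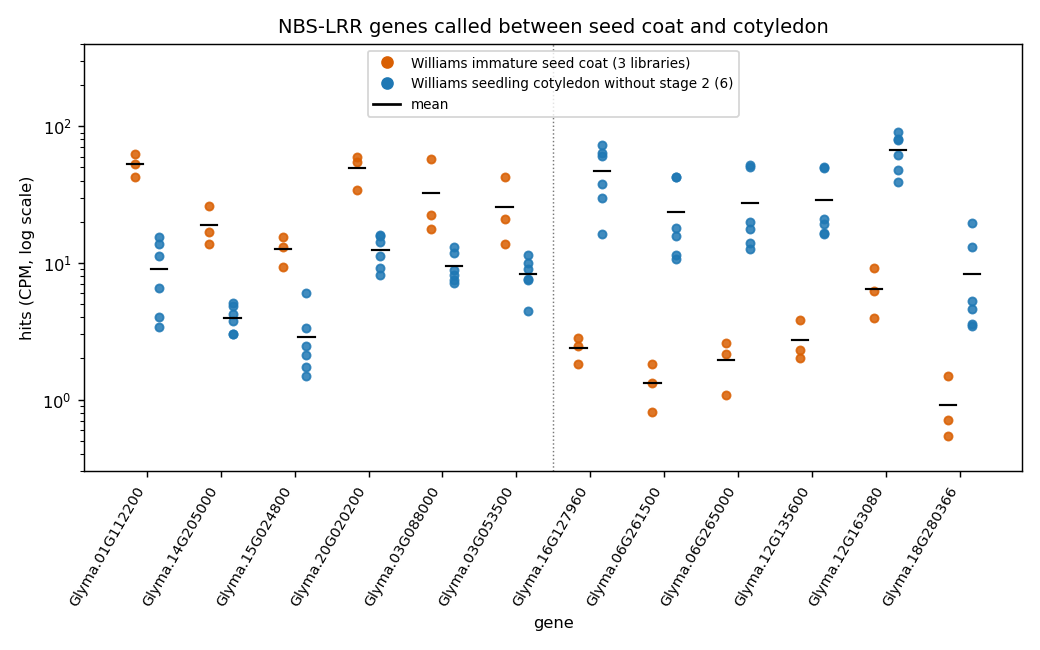
Hits (vertical axis, CPM on a log scale) of 12 genes called between Williams immature seed coats (orange, 3 libraries, left of each pair) and seedling cotyledons without stage 2 (blue, 6 libraries), with each point a library and bars at the means. The 6 genes left of the dotted line rose in seed coats, and the 6 right of it fell, with no overlap in any of the 12.

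The strand balance of single members also differed between these tissues. The ratio of sense to antisense hits differed for 37 members by edgeR's interaction term, 16 shifted toward sense in seed coats and 21 toward antisense, against 18% of all 16878 genes tested, 9.02% and 9% by direction. The sense shares of the groups did not overlap for 53 members, against 37.6% of all genes. Leaving out the Williams coat of 400 to 500 mg left 22 calls, 15 and 7. Glyma.03G088000 had 99.4, 99.7 and 97.6% sense hits in coats of 100 to 200, 200 to 300 and 400 to 500 mg, against 41.9 to 71.7% in cotyledons, a log2 difference of the ratio of 6.63 ± 0.85 (edgeR adjusted p = 4.14e-05). Glyma.12G132000 had 92.7, 99.5 and 98.2%, against 17.0 to 45.8% in 5 cotyledons and 91.6% at stage 5 (6.31 ± 1.21). Glyma.06G146200 had the Williams coat shares given above and 0.163 to 0.370% in cotyledons (5.42 ± 0.78), and Glyma.20G020200 had 99.8 to 100% in coats and 93.9 to 99.0% in cotyledons (5.08 ± 0.96). In these 4 genes every Williams coat had the larger sense share.

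In the opposite direction, Glyma.01G112200 had 0.205, 1.63 and 0.730% sense hits in the same coats, against 30.6 to 56.8% in cotyledons, a log2 difference of the ratio of -6.64 ± 0.77 (edgeR adjusted p = 1.80e-05). Its gain in seed coats therefore lay on the antisense strand: from sense hits alone its log2 change was -2.99. Glyma.16G127960 had 84.6, 84.9 and 40.6% sense hits in coats, against 98.9 to 100% (-6.43 ± 0.89), and its change from antisense hits alone was 1.21 (edgeR adjusted p = 0.291). For Glyma.03G088000 the change from antisense hits alone was -4.35, opposite to its total. Glyma.06G261400, a TIR gene, had 2.94, 0.750 and 1.68% in coats, against 36.6 to 64.5% (-5.90 ± 0.70). Glyma.15G024800 had 0, 0.842 and 0%, against 0% at stage 1, 2.08% at stage 5 and 12.5 to 32.3% at the remaining stages (-5.47 ± 1.25), so that its groups met at 0%.

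**Figure D5:**
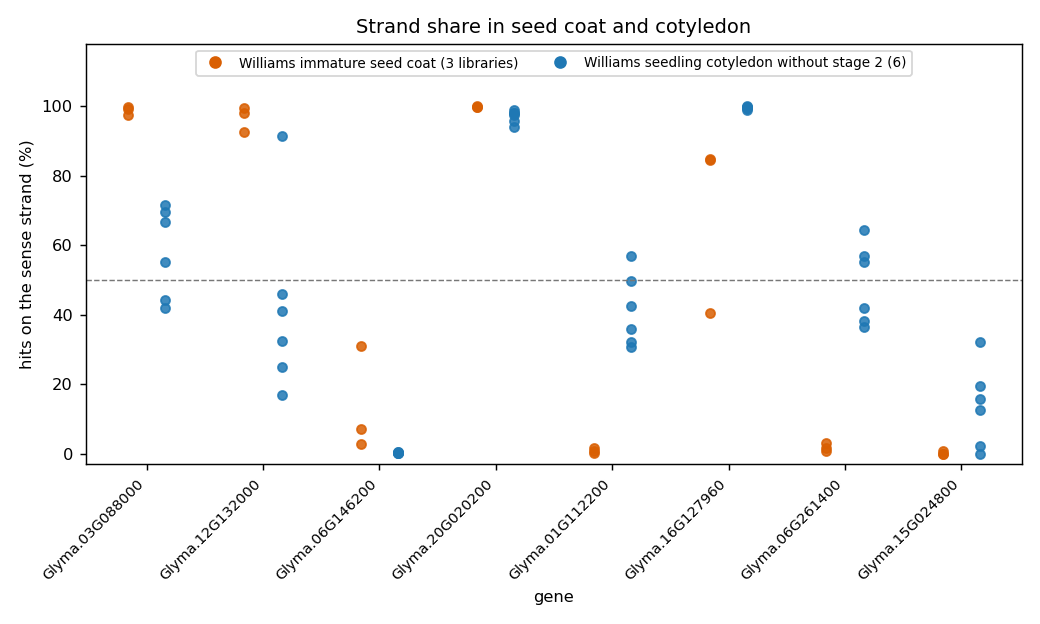
Share of hits on the sense strand (vertical axis, percent) of 8 genes in Williams immature seed coats (orange, 3 libraries, left of each pair) and seedling cotyledons without stage 2 (blue, 6 libraries), each point a library. Glyma.03G088000 lies at 97.6% or more in coats and 71.7% or less in cotyledons, and Glyma.01G112200 at 1.63% or less and 30.6% or more.

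Vegetative buds were set against adult shoot tips in Clark, in a fit of 9 libraries with terms for tissue and for isoline. Of the 150 members 8 rose in buds and none fell, against 2.5% of all 14015 genes called, 2.23% higher and 0.271% lower. The groups did not overlap for 59 members, against 17.8% of all genes, and the members' median log2 change was 0.50 against -0.14 for all genes. The 8 were Glyma.06G275000 and the 7 sense-set genes, which may share reads. The 8 calls may therefore not be independent of each other, and whether members rose more often than all genes was not tested. Glyma.08G192900 had 20.5, 31.2 and 15.3 CPM in standard, five-foliate and glabrous buds, against 3.47 and 3.88 CPM in standard, 4.91 CPM in five-foliate and 7.94 CPM in glabrous adult tips. Its log2 change was 2.21 ± 0.35 (edgeR adjusted p = 0.00604), and the groups did not overlap. The 1-month tips had more than either, 54.3 CPM in five-foliate and 72.0 CPM in glabrous plants.

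Among the other sense-set genes the log2 change was 2.18 ± 0.35 for Glyma.18G105100, 2.13 ± 0.35 for Glyma.13G194800 and 2.05 ± 0.34 for Glyma.07G123000. It was 1.70 ± 0.32 for Glyma.03G053100, which had 27.0, 41.4 and 21.4 CPM in buds, against 7.25 to 14 CPM in adult tips, and Glyma.03G054100 (1.62 ± 0.32) and Glyma.14G151100 (1.5 ± 0.28) completed the sets. Glyma.06G275000, a TIR gene with 60.4% sense hits, had 59.3, 77.0 and 70.0 CPM in buds, against 17.6 to 25.1 CPM in adult tips, a log2 change of 1.79 ± 0.26 (edgeR adjusted p = 0.00604). Its 1-month tips had 18.8 and 22.2 CPM, at the level of adult tips, unlike the 7 others. No member was called without the five-foliate buds, without the five-foliate adult tips, or with sequenced reads as library size, where the 6 members named by rule kept log2 changes of 1.25 to 1.77. For the strand ratio between buds and adult tips, edgeR called none of the 150 members, with 11 at an unadjusted p under 0.05, against 0.0856% of all genes called (0.0571% toward sense, 0.0285% toward antisense) and 2.78% at that unadjusted p. Their sense shares did not overlap for 20 members, against 6.71% of all genes, and limma called none.

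Five-foliate and glabrous plants were set against standard plants to compare the isolines, which share i-i R T. Neither comparison called any member by edgeR, and none of all 14015 genes was called (0%). For five-foliate plants 6 members had an unadjusted p under 0.05, against 6.01% of all genes, the groups did not overlap for 9, against 8.7% of all genes, and DESeq2 called none. For glabrous plants 11 members had one, against 17.2% of all genes, and DESeq2 called 1. The smallest p belonged to the TIR gene Glyma.16G137000, named for that reason after its values were seen. It averaged 2.50 ± 0.68 CPM in glabrous and 0.315 ± 0.319 CPM in standard libraries (SD, n = 3 each), a log2 change of 3.16 ± 0.63 (edgeR adjusted p = 0.272). The glabrous libraries were buds, 1-month tips and adult tips, and the standard libraries were buds and adult tips alone. Means, SDs and overlaps of the isolines thus pool unlike tissues, and only the fits have a term for tissue. The members' median log2 change was -0.03 for five-foliate and -0.09 for glabrous plants, and that of all genes -0.02 and -0.12.

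Richland and T157 seed coats of 5 to 6 mg differ in cultivar and in their alleles of the I locus (I and i). By edgeR no member tested was called and none had an unadjusted p under 0.05, against 1.12% of all 10761 genes called (0.65% higher, 0.474% lower) and 8.17% at that unadjusted p, and DESeq2 called none of 150. The smallest p belonged to the TIR gene Glyma.03G077400, named for that reason after its values were seen, with 17.0 ± 7.83 CPM in Richland and 26.3 ± 4.90 CPM in T157 (SD, n = 3 each) and a log2 change of -0.65 ± 0.37 (edgeR adjusted p = 0.732). CHS7 and CHS8 together had 371 to 559 CPM in Richland and 15.4 to 20.3 CPM in T157. At 3 libraries a group, a member difference smaller than this spread was not detectable.

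Of the family genes below rank 150 that could be tested between seed coat and cotyledon, 20 rose and 76 fell, 13.4% and 51% of them beside the 28.7% and 27% of all genes, with a median log2 change of -1.62. The split depends on scaling here too: 35 rose and 63 fell with library totals, and 45 rose and 40 fell with sequenced reads, while the median relative to all genes was -1.67, -1.60 and -1.58 under the 3 scalings. The gene with the smallest p that rose was Glyma.07G063100 (6.53 ± 0.51, edgeR adjusted p = 6.63e-06), and that which fell was Glyma.09G258200 (-4.84 ± 0.60). Of 56 tested genes described as LRR and NB-ARC proteins 2 rose and 5 fell, led by Glyma.03G043500 (5.39 ± 0.83) and Glyma.15G225200 (-3.44 ± 0.61). With library totals 7 rose and 2 fell, and with sequenced reads 25 and 2. Their median relative to all genes was -0.47, -0.44 and -0.52 under the 3 scalings. In buds against adult tips, 5 lower-ranked family genes rose and none fell, with Glyma.08G328800 at 2.48 ± 0.40, and 2 of 51 LRR and NB-ARC genes rose, with Glyma.03G075100 at 1.22 ± 0.26. For strand, 56 of 155 lower-ranked family genes were called toward sense and 66 toward antisense, led by Glyma.06G316301 (log2 ratio 6.63) and Glyma.14G206500 (-8.56). Of 56 LRR and NB-ARC genes 27 and 15 were called, led by Glyma.03G044125 (4.91) and Glyma.19G135800 (-3.05). Among all genes tested for strand, 45.5% were called toward sense and 42% toward antisense. Their strand ratio differed between coat and cotyledon for 21 toward sense and 20 toward antisense among lower-ranked genes, led by Glyma.01G125400 (8.32) and Glyma.01G112300 (-5.81), and for 8 and 2 of 56, led by Glyma.U032405 (5.44) and Glyma.19G135400 (-2.15).

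Genes of the pathway that makes phased small RNAs themselves carried hits. Of 36 tested genes for Dicer-like, Argonaute, RDR, SGS3 and HEN1 proteins, 10 rose in seed coats and 8 fell, shares of 27.8% and 22.2% beside the 28.7% and 27% of all genes. With sequenced reads as library size, 18 of 37 rose and 5 fell. The median log2 change was then 1.04 for these genes and 1.39 for all genes. Of the 10, 4 are 2 pairs of AGO10 genes that cannot be counted apart: Glyma.02G002500 and Glyma.10G002700 had identical hits in every library, and Glyma.17G119400 and Glyma.05G011300 had 31518 and 31468 hits in all. Hits on the 2 DCL4 genes rose, Glyma.13G156500 averaging 56.0 ± 7.40 CPM in seed coats and 15.2 ± 2.66 CPM in cotyledons (log2 change 1.82, edgeR adjusted p = 1.75e-04). The other, Glyma.17G104100, had 356 hits in all. It averaged 0.599 CPM in seed coats and 0.00895 CPM in cotyledons, so its fold rests on the prior count. Of 6 tested SGS3 genes 1 rose and 3 fell, Glyma.05G198500 averaging 0.523 ± 0.205 CPM in seed coats and 62.7 ± 21.6 CPM in cotyledons (-6.94 ± 0.57; adjusted p = 8.61e-06). The AGO7 gene Glyma.02G111600 rose (7.04 ± 0.74), averaging 1.75 CPM in seed coats and 0.00895 CPM in cotyledons, so its fold rests on the prior count. The single RDR6 gene tested, Glyma.04G067300, was not called, with 1.54 ± 0.87 CPM in seed coats and 2.12 ± 0.80 CPM in cotyledons. In buds against adult tips edgeR called none of 31 and 1 had an unadjusted p under 0.05, against 2.5% and 14.2% of all genes.

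For strand, 14 of 36 pathway genes were called toward sense and 14 toward antisense, against 45.5% and 42% of all genes and with the same pairs among them, led by the AGO10 gene Glyma.17G119400 (log2 ratio 10.96) and Glyma.14G041100 (-9.63). The ratio differed between coat and cotyledon toward sense for 2 of 36, led by the SGS3 gene Glyma.04G203600 (8.31). It differed toward antisense for 4, led by the AGO10 gene Glyma.02G002500 and its identical pair (-7.87). Of all genes 9.02% and 9% were called in these directions. Glyma.02G002500 averaged 2.47 CPM in seed coats and 0.262 CPM in cotyledons, so its difference rests on few hits there. Partners of NBS-LRR receptors in signalling were scarcely hit, with 4 of 28 genes passing the filter between coat and cotyledon. Of these 2 rose and none fell, against 28.7% and 27% of all genes. Glyma.20G151900, a homolog of RAR1, a co-chaperone of receptors, had 18.6 ± 5.35 CPM in seed coats and 0.267 ± 0.145 CPM in cotyledons (6.03 ± 0.44; edgeR adjusted p = 5.61e-06), all of its hits being sense. EDS1 is needed for signalling by TIR receptors. The single gene whose best Arabidopsis match was the EDS1 locus used for the list had 30 hits in all. Toward sense 2 of 6 partners were called and toward antisense 2, led by Glyma.18G166800 (10.02) and Glyma.13G069800 (-3.49), against 45.5% and 42% of all genes. Glyma.05G194101, a PAD4 homolog, was the 1 of 4 whose ratio differed between the tissues (7.64 ± 1.80), against 18% of all genes. It had 486 hits in all and averaged 0.877 CPM in seed coats and 0.111 CPM in cotyledons, so this difference rests on few hits. Between buds and adult tips, edgeR called none of the 2 partners tested, and none had an unadjusted p under 0.05.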

How the data were processed

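The authors deposited raw counts of total and unique read hits for both strands of every transcript model in 36 libraries, per the file headers. A second deposited table gives counts and RPM of CHS7 and CHS8, which the authors divided by the reads of each library; its reads served as an alternative library size. Per the submitters' processing notes the aligner was Bowtie 1. Build, read sizes and mismatches were not given in the sources used here, nor were kit and sequencer by library.

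The members and the gene lists were chosen with earlier results of these data known. Totals (sense plus antisense) were tested with edgeR 4.0.16 (quasi-likelihood, TMM factors, filterByExpr at 10 counts and 15 in total, Benjamini-Hochberg adjustment over all genes tested, threshold 0.05). Strand was tested with the library as a block, for genes with at least 10 hits in at least 10 libraries, and strand by tissue as an interaction term. limma 3.58.1 (log2 ratios with a pseudocount of 0.5) and DESeq2 1.42.0 were alternatives, in R 4.3.3. Summaries used Python 3.11.15, pandas 2.3.3, numpy 2.4.6, scipy 1.17.1 and matplotlib 3.10.9. Simulated counts were used to check comparisons of totals between groups, sense against antisense, and the strand interaction between coat and cotyledon. The Clark fits with isoline and tissue terms and DESeq2 were not checked in this way. Gene hits were 5739265 to 85258357 per library, and depth alone does not set the precision. Spread beyond counting error was measured between libraries of a group (Richland and T157 coats of 5 to 6 mg, Clark standard adult tips). The chi-square per degree of freedom was 21.0 to 90.2, far above counting error. Intervals are 95% Wilson intervals, which cover counting error only.

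Named are the 10 members with the most hits and the 3 on either side of the threshold; in comparisons of totals, in each direction, the 6 called members of largest change that average 5 CPM or more without overlap; for strand, the 5 largest ratios and the 4 largest interactions in each direction; and, for other lists, the called gene with the smallest p in each direction. Replicate numbers of Richland and T157 did not pair the libraries. The stage 2 seedling cotyledon library was left out, except as an alternative.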

Additional observations from a re-analysis of the deposited data

Results flagged for a closer look

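In the seedling cotyledons, 36 groups of values were screened for a library far from the others, and 6 stood out. Chance alone gives about 1 in 20 for separate groups. Of the 6, 5 are the stage 5 library in genes of the near-equal sense sets. They are not separate, so their number cannot be set against that share. The stage 2 library had 68.5% sense hits over the members, against a median of 22.4% in the other 6 cotyledons, and it has few hits. In the stage 5 library, 5 genes of the near-equal sense sets were far above the other cotyledons. Glyma.08G192900 had 57.0 CPM there, against a median of 10.0 CPM in the others, Glyma.18G105100 had 56.8 against 10.1 CPM, and Glyma.07G123000 had 57.5 against 11 CPM. Glyma.13G194800 had 60.4 CPM at stage 5, against a median of 16.6 CPM, and Glyma.03G053100 had 62.5 against 19 CPM.

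The strand ratio differed between Williams immature seed coats and seedling cotyledons, by edgeR's interaction term, in 8 named genes. The log2 difference was 6.63 for Glyma.03G088000, 6.31 for Glyma.12G132000, 5.42 for Glyma.06G146200 and 5.08 for Glyma.20G020200. It was -6.64 for Glyma.01G112200, -6.43 for Glyma.16G127960, -5.90 for Glyma.06G261400 and -5.47 for Glyma.15G024800.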

How the results depend on the processing

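Between seed coat and seedling cotyledon, 37 members were called, against 65 from sense hits alone, 71 with sequenced reads as library size, 16 with the stage 2 library and 30 to 55 with a library left out. Between buds and adult tips, 8 were called, against 23 with DESeq2, 5 with library totals, 2 from antisense hits alone, 16 from sense hits alone, 0 with sequenced reads and 0 to 14 with a library left out. For glabrous against standard, DESeq2, no filter on low counts and unique hits called 1 each, and leaving out libraries called 0. Leaving out a library gave 0 calls for five-foliate plants and for Richland against T157. The strand ratio was called for 37 members between seed coat and cotyledon, and for 22 to 33 with a library left out. Between buds and tips it was called for 1 member from unique hits, and for 0 to 1 with a library left out. The ratio of the highest to the lowest summed tissue level was 22.9 by CPM, 34.7 by share of gene hits and 50.5 relative to sequenced reads. Direction reversed from single strands in Glyma.01G112200 (-2.99, sense), Glyma.03G088000 (-4.35, antisense) and Glyma.16G127960 (1.21, antisense). Over the named genes, 452 of the other values kept direction and call, and 26 kept direction but lost the call. Causes were not tested. Sequenced reads as library size was an alternative chosen after seeing the data.

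With the replicate number as a block, Richland against T157 gave 0 calls, as without it. Deviations of same-numbered libraries correlated at -0.22, -0.15 and -0.16, so the numbers did not pair the libraries.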
